A study of Mus musculus with 6 samples.

Results

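Genes of the choroid plexus epithelium were examined in RNA from mouse brain after cranial irradiation. The genes are Folr1, Clic6, Otx2, Aqp1, Cldn2, Sostdc1, Kl, Slc4a5, Trpv4 and Prlr, chosen by name as genes of this epithelium. Ttr and the potassium channels of the epithelium were left out. All 10 were found among the 23057 genes of the deposited table, and each passed the filter on low values. The mice were C57BL/6, either mock-irradiated or given a total X-ray dose of 10 Gy to the head through a collimator with a field 10.08 mm wide. Brains were taken 30 days later, after perfusion with saline, with 3 mice in each group. Neither group carried an engineered allele or received another agent per the labels, and their age and sex are not stated in those labels. The values are FPKM, which relate the fragments of a gene to its transcript length and to the library's mapped total, so levels of different genes can be set side by side per length.

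The choroid plexus is a frond of epithelium around a core of vessels and stroma in each brain ventricle. Its epithelial cells secrete cerebrospinal fluid by moving sodium, chloride, bicarbonate and water from blood to ventricle, and their tight junctions form the barrier between the blood and that fluid. They also carry vitamins and hormones across and release signalling proteins into the fluid. In RNA from a dissected brain this epithelium is a small share of the tissue. A level in such RNA therefore depends on how much plexus was in the sample as well as on RNA per cell, and fewer cells of a type and less RNA per cell cannot be told apart.

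Genes that mark brain regions differed between the libraries, although the labels give whole brain as the source of each. The summed FPKM of 12 cerebellar genes was 1079 to 1415 in mock and 61.2 to 105.0 in irradiated libraries, and each of the 12 was called lower in irradiated brains (limma, adjusted p under 0.05). The summed FPKM of 8 telencephalic genes was 48.7 to 91.7 in mock, against 152.4 to 314.5 in irradiated libraries. Mock 2 stood apart within its group: the mean centred log2 level of those telencephalic genes was -2.16 there, against -0.27 in both mock 1 and mock 3. Irradiated 1 stood apart by transcript length: with the tested genes in 4 equal classes of length, the median centred log2 level of the longest class minus that of the shortest was -0.56, and between -0.075 and 0.38 in the other 5 libraries. The regional markers separate the groups, so regional content and irradiation cannot be told apart. The part that transcript length had in the results for single genes was not tested, beyond the values without these libraries and with a length correction given below.

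Each of the 10 genes had a lower mean FPKM in irradiated than in mock brains, but none of the differences passed the test. Of 14585 genes tested, 7.72% were called (limma on log2(FPKM + 0.5), adjusted p under 0.05), 3.48% as higher and 4.24% as lower, and 0 of the 10 were called either way. Before adjustment 3 of 10 had a p under 0.05, namely Slc4a5, Prlr and Sostdc1, against 25.6% of all genes (13.9% with a lower level, as these 3 had). The median log2 change over the 10 was -0.49, from -0.83 for Slc4a5 to -0.17 for Folr1, beside a median of -0.02 over all genes tested, of which 51.8% had a change below 0. The irradiated range overlapped the mock range for all 10 genes, while 31.5% of all tested genes had every irradiated library outside the mock range.

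For most of the genes the overlap came through mock 2. That library was the lowest mock library for 8 of the 10 genes, against 41.4% of all tested genes, the exceptions being Otx2 and Prlr. Mock 1 and mock 3 both lay above every irradiated library for 8 genes, the exceptions again being Otx2 and Prlr. Mock 2 was set aside in that count after its values were seen. The share of all tested genes with the same order is not given here, so the count describes these libraries only. The summed FPKM of the 10 genes was 47.5 in mock 1, 27.1 in mock 2 and 57.2 in mock 3. In irradiated libraries 1, 2 and 3 it was 27.8, 29.0 and 33.1. Thus 2 mock libraries were high, and the remaining mock library was at the level of the irradiated ones.

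**Figure D1:**
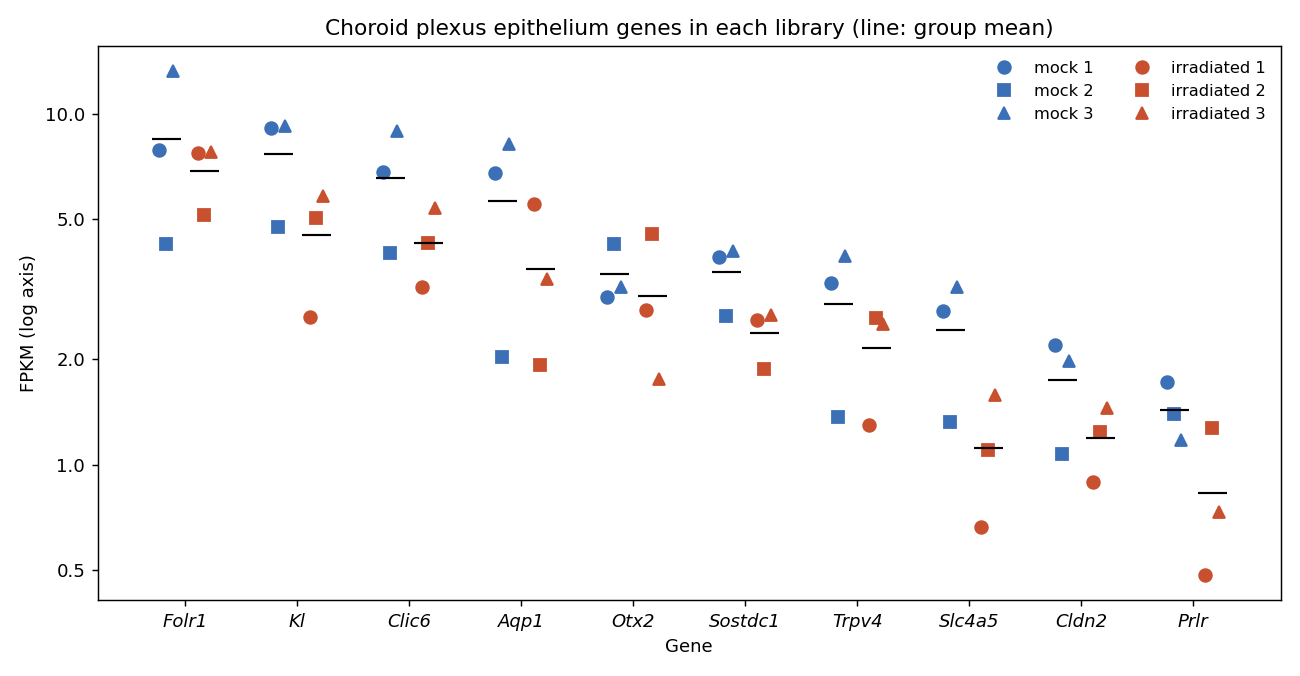
FPKM of each gene (log axis) in each of the 3 mock (blue) and 3 irradiated (orange) libraries, with replicate numbers shown by symbol and a line at the group mean. Mock 1 and mock 3 lie above all irradiated libraries for 8 of the 10 genes, a count without a share over all tested genes beside it. Mock 2, the blue square, lies among the irradiated libraries or below them except for Prlr.

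The genes of fluid and ion transport are Aqp1, Slc4a5, Clic6 and Trpv4. Aqp1 encodes the water channel of the ventricular face of the epithelium (chromosome 6, 55336432 to 55348555, GRCm38). Mock libraries 1, 2 and 3 had 6.77, 2.03 and 8.18 FPKM of it, and irradiated libraries 1, 2 and 3 had 5.53, 1.93 and 3.39 FPKM. The spread within each group was wide, 4.02-fold among mock and 2.87-fold among irradiated libraries, with the number 2 library lowest in both. Its log2 change was -0.50 (SE 0.48, 95% interval -1.60 to 0.61, limma adjusted p = 0.55).

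Slc4a5 encodes a sodium bicarbonate cotransporter that moves base into the fluid (chromosome 6, 83219828 to 83304945). Its mock values were 2.74, 1.32 and 3.22 FPKM, and its irradiated values were 0.67, 1.10 and 1.58 FPKM. Only mock 2 fell inside the irradiated range. It had the widest log2 change of the 10, -0.83 (SE 0.31, 95% interval -1.55 to -0.12, limma adjusted p = 0.14), from 2.43 ± 0.99 to 1.12 ± 0.46 FPKM (SD, n = 3 each).

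Clic6 encodes a protein of the chloride intracellular channel family (chromosome 16, 92485736 to 92541243). The mock brains had 6.82, 4.003 and 8.92 FPKM, and the irradiated brains 3.21, 4.27 and 5.40 FPKM. Mock 2 again lay inside the irradiated range, below irradiated 2 and 3. For Clic6 the log2 change was -0.52 (SE 0.29, 95% interval -1.19 to 0.14, limma adjusted p = 0.29). A noncoding transcript on the same strand within Clic6, 2410124H12Rik, shares no exon bases with it in GENCODE M21. It had 3.78, 5.88 and 2.68 FPKM in the mock brains and is listed at 0 in each irradiated library, a pattern that Clic6 did not have. It was singled out after its values were seen.

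Trpv4 encodes a calcium-permeable channel opened by osmotic and mechanical stimuli (chromosome 5, 114622152 to 114658421). Mock libraries had 3.30, 1.37 and 3.94 FPKM and irradiated libraries 1.30, 2.61 and 2.52 FPKM. Mock 2 and irradiated 1 were alike and low, and the other 4 libraries were higher. The log2 change was -0.30 (SE 0.35, 95% interval -1.10 to 0.50, limma adjusted p = 0.62).

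Cldn2 and Folr1 stand for the barrier and for carriage across it. Cldn2 encodes a claudin that forms paracellular channels for cations and water in leaky tight junctions (chromosome X, 139800828 to 139811386). Its mock values were 2.19, 1.07 and 1.98 FPKM, and its irradiated values 0.89, 1.24 and 1.45 FPKM. Mock 1 and mock 3 were above all irradiated libraries, and mock 2 was below irradiated 2 and 3. Cldn2 had a log2 change of -0.38 (SE 0.25, 95% interval -0.95 to 0.19, limma adjusted p = 0.37).

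Folr1 encodes folate receptor alpha, which carries folate from blood to fluid (chromosome 7, 101858331 to 101870788). Mock libraries had 7.89, 4.26 and 13.2 FPKM, a 3.11-fold spread, and irradiated libraries had 7.73, 5.13 and 7.79 FPKM. Mock 1 was barely above the higher irradiated libraries, and mock 3 alone stood clear. Folr1 had the log2 change nearest to 0 of the 10, -0.17 (SE 0.36, 95% interval -0.99 to 0.64, limma adjusted p = 0.79). That value turned to 0.20 without mock 3 and to 0.013 without irradiated 2.

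The secreted and hormone-binding genes are Sostdc1, Kl and Prlr. Sostdc1 encodes a secreted antagonist of bone morphogenetic protein and Wnt signalling (chromosome 12, 36314139 to 36318452). The 3 mock brains had 3.91, 2.66 and 4.07 FPKM, and the 3 irradiated brains 2.58, 1.87 and 2.67 FPKM. The groups touched only through mock 2, which lay just below irradiated 3. The mean went from 3.54 ± 0.77 to 2.37 ± 0.44 FPKM (SD, n = 3 each), with a log2 change of -0.49 (SE 0.21, 95% interval -0.97 to -0.0049, limma adjusted p = 0.19).

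Kl encodes klotho, a co-receptor for the hormone FGF23 whose outer part is shed into the fluid (chromosome 5, 150952607 to 150993817). Values of 9.10, 4.77 and 9.24 FPKM in the mock brains stood beside 2.64, 5.04 and 5.85 FPKM in the irradiated ones. Mock 1 and mock 3 were nearly equal and high, irradiated 1 was the lowest, and mock 2 lay between irradiated 1 and 2. Kl had a log2 change of -0.72 (SE 0.33, 95% interval -1.46 to 0.025, limma adjusted p = 0.21).

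Prlr encodes the prolactin receptor, which signals through JAK2 and STAT5 and is also made by some hypothalamic neurons (chromosome 15, 10177238 to 10349180). Its mock values were 1.72, 1.40 and 1.18 FPKM and its irradiated values 0.48, 1.27 and 0.73 FPKM. Here mock 2 was in the middle of its group, and the overlap came from irradiated 2, which lay above mock 3. The change of Prlr on the log2 scale was -0.57 (SE 0.25, 95% interval -1.13 to -0.012, limma adjusted p = 0.19).

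Partners of prolactin and klotho signalling were given by a list of 11 genes, of which 8 passed the filter, 1 was lower and 0 were higher. Fgfr2, one of the receptors that fibroblast growth factors use, was the lower one, with 18.8, 13.3 and 14.0 FPKM in the mock brains and 9.45, 9.42 and 6.40 FPKM in the irradiated ones (log2 change -0.84, SE 0.21, limma adjusted p = 0.048). Fgfr1, the receptor klotho is best known to pair with, changed by -0.38 on the log2 scale (limma adjusted p = 0.16), and Fgfr3, the most abundant of the list, by -0.16 (adjusted p = 0.65). Stat5b, a factor that the prolactin receptor activates, was at -0.53 (limma adjusted p = 0.14). Among all tested genes 4.24% were called lower, and 51.8% had a log2 change below 0. Of the 8 tested here, 7 had a log2 change below 0 and 1 above. The latter was Socs2, at 0.37 (limma adjusted p = 0.19). Prl, the hormone itself, is listed at 0 in 5 libraries and was at 1.60 FPKM in irradiated 3. The same library was the only one with Gh, the growth hormone of the pituitary, above 0 (5.08 FPKM), and 10 pituitary genes summed to 12.2 FPKM there against 3.77 to 7.59 FPKM elsewhere. That library lay between the other irradiated libraries for Prlr.

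Otx2 encodes the homeodomain transcription factor that the epithelium needs to form and to keep its identity (chromosome 14, 48657677 to 48673819, minus strand). The mock brains had 3.01, 4.25 and 3.20 FPKM of it, and the irradiated brains had 2.76, 4.54 and 1.76 FPKM. The number 2 libraries were highest in both groups, which no other of the 10 genes showed in mock, and irradiated 3 was lowest. The log2 change was -0.24 (SE 0.29, 95% interval -0.90 to 0.42, limma adjusted p = 0.62), and it was 0.037 without irradiated 3. The antisense gene Otx2os1 shares 154 exon bases with Otx2, and whether counting used the strand is not stated in the labels. Otx2os1 was between 0 and 0.33 FPKM in every library, against at least 1.76 FPKM for Otx2.

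Markers of other tissues that use Otx2 gave the following values. The 7 genes of the pineal gland summed to 0.96 to 2.03 FPKM in mock and 1.67 to 2.64 FPKM in irradiated libraries, and Crx was at most at 0.016 FPKM. Sag, the arrestin of photoreceptors and pinealocytes, had 0.67, 0.13 and 1.01 FPKM in the mock brains and 1.67, 1.07 and 1.61 FPKM in the irradiated ones, with no overlap (limma adjusted p = 0.12). Those of the retinal pigment epithelium summed to 5.52 to 10.5 FPKM in mock and 7.32 to 11.2 FPKM in irradiated libraries, mostly from Rlbp1, which glia also express, while Rpe65 was at most at 0.30 FPKM. Rpe65, which did not pass the filter, and Best1 (log2 change 0.51, limma adjusted p = 0.14) also had every irradiated library above mock. Pmel, also under the filter, had every irradiated library below mock, at 0.18, 0.16 and 0.18 against 0.47, 0.28 and 0.57 FPKM. Among all tested genes, 31.5% had every irradiated library outside the mock range. The part of these tissues, and of midbrain neurons that express Otx2, in its level was not tested.

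Promoter windows are shown for Otx2, the gene furthest from the mean pattern of the 10 described below, and for Cldn2, the closest to it. That choice was made after the values were seen. RefSeq windows on GRCm38.p6 covering the 250 bases before a start site were held for 7 of the 10 genes, 12 windows in all. They were searched on both strands for TAATCC, a core bound by OTX homeodomains (reverse complement GGATTA), and for TAATTA, a core of many other homeodomains, which is its own reverse complement. Only windows of Otx2 held a match: 1 window had TAATCC and 2 had TAATTA, while 6.25% and 4.84% of all 32851 windows did. The most distal of the 4 Otx2 windows, chr14:48667645-48667894 on the minus strand, holds TAATTA at 141 to 136 bases before the start, here in capitals. Another Otx2 window, chr14:48665110-48665359, which is not printed, holds more matches: 1 of TAATCC, as GGATTA, and 3 of TAATTA. The Cldn2 window, chrX:139800558-139800807 on the plus strand, holds neither motif and has no capitals.
Otx2: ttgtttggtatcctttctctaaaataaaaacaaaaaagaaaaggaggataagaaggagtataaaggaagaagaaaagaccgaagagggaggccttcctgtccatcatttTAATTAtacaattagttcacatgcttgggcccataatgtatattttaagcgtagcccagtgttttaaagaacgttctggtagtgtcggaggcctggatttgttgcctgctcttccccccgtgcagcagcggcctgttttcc
Cldn2: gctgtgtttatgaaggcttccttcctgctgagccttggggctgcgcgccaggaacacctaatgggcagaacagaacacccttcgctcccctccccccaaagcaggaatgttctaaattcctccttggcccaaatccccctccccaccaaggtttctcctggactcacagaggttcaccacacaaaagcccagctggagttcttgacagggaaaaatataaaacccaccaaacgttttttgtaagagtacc
A match is a description of letters in the window and says nothing about binding.

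Leaving out mock 2 widened the differences for 9 of the 10 genes. Mock 2 was the lowest mock library for 8 of them, so for these the widening was fixed in advance and is no further support. Without mock 3 instead, the median log2 change was -0.29, and 1 of 10 had an unadjusted p under 0.05 (limma). Without mock 2 the median log2 change of the 10 was -0.67, and 7 of 10 had an unadjusted p under 0.05. For neither fit is the share of all tested genes with such a p given here, so these counts have no background. None of the 10 was called without mock 2 (limma, smallest adjusted p = 0.072, for Slc4a5). Of 14582 genes tested in that fit, 205 were called higher and 298 lower. The log2 change without mock 2 was -1.14 for Slc4a5, -1.05 for Aqp1, -1.01 for Kl and -0.82 for Clic6. Otx2 went the other way, to -0.11. With mock 2 and irradiated 1 both left out, 3 genes were called lower by limma: Aqp1 (log2 change -1.37, adjusted p = 0.016), Slc4a5 (-0.93, adjusted p = 0.038) and Kl (-0.71, adjusted p = 0.046). Those fits rest on 2 libraries a group and were added after the data had been seen. For Aqp1 they dropped the lowest mock value (2.03 FPKM) and the highest irradiated value (5.53 FPKM). For Slc4a5 and Kl they dropped the lowest mock values (1.32 and 4.77 FPKM) and also the lowest irradiated values (0.67 and 2.64 FPKM). Of 14603 genes tested in this way, 620 were called higher and 672 lower. Mock 2 was doubted because its telencephalic genes were low as a group, and irradiated 1 because of its length trend.

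**Figure D2:**
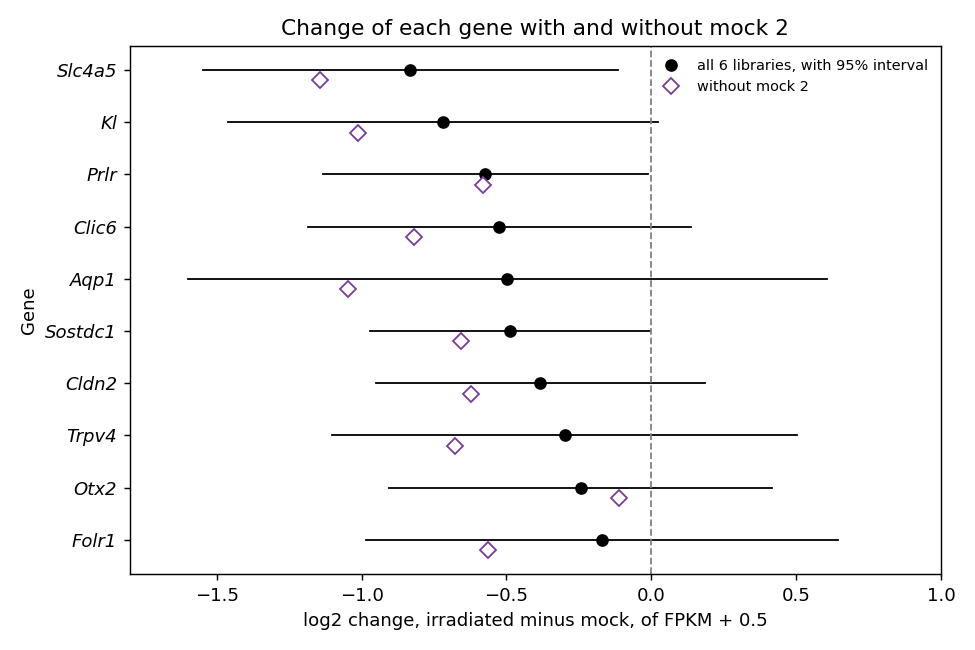
Log2 change of each gene (irradiated minus mock, of FPKM + 0.5) with all 6 libraries (black, with the 95% interval from limma) and without mock 2 (open diamonds). All 10 black points lie below 0, and the diamonds lie further from 0 for 9 genes, Otx2 being the exception.

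Irradiated 1 was set against the other irradiated libraries by transcript length, with no test of a relation over the 10 genes. Irradiated 1 was the lowest of the irradiated libraries for 6 genes. Relative to the mean of irradiated 2 and 3 its log2 level was -0.92 for Kl, -0.65 for Slc4a5 and -0.59 for Prlr, whose longest transcripts have 5828, 5123 and 9900 bases. It was 0.27 for Folr1 (1313 bases) and 0.17 for Sostdc1 (1781 bases), the shortest of the 10. Genes of middle length had -0.77 (Trpv4, 3228 bases), -0.52 (Clic6), -0.41 (Cldn2) and -0.051 (Otx2). Aqp1, with 2627 bases, was the highest at 0.97. The values did not follow length in order, as Trpv4 lay below Slc4a5 and Prlr. After each library had been corrected for transcript length, the log2 change was -0.59 for Kl, -0.73 for Slc4a5, -0.39 for Prlr, -0.58 for Sostdc1 and -0.31 for Folr1, with 0 of 10 called (limma, smallest adjusted p = 0.085, for Sostdc1). With that correction and without mock 2, Sostdc1 (log2 change -0.75, limma adjusted p = 0.047) and Slc4a5 (-1.02, adjusted p = 0.049) were called lower. Mock 2 had the lowest mock FPKM of both (2.66 and 1.32), and this setting was added after the data were seen, so the calls are no further support. Of 14051 genes tested in it, 436 were called higher and 425 lower.

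**Figure D3:**
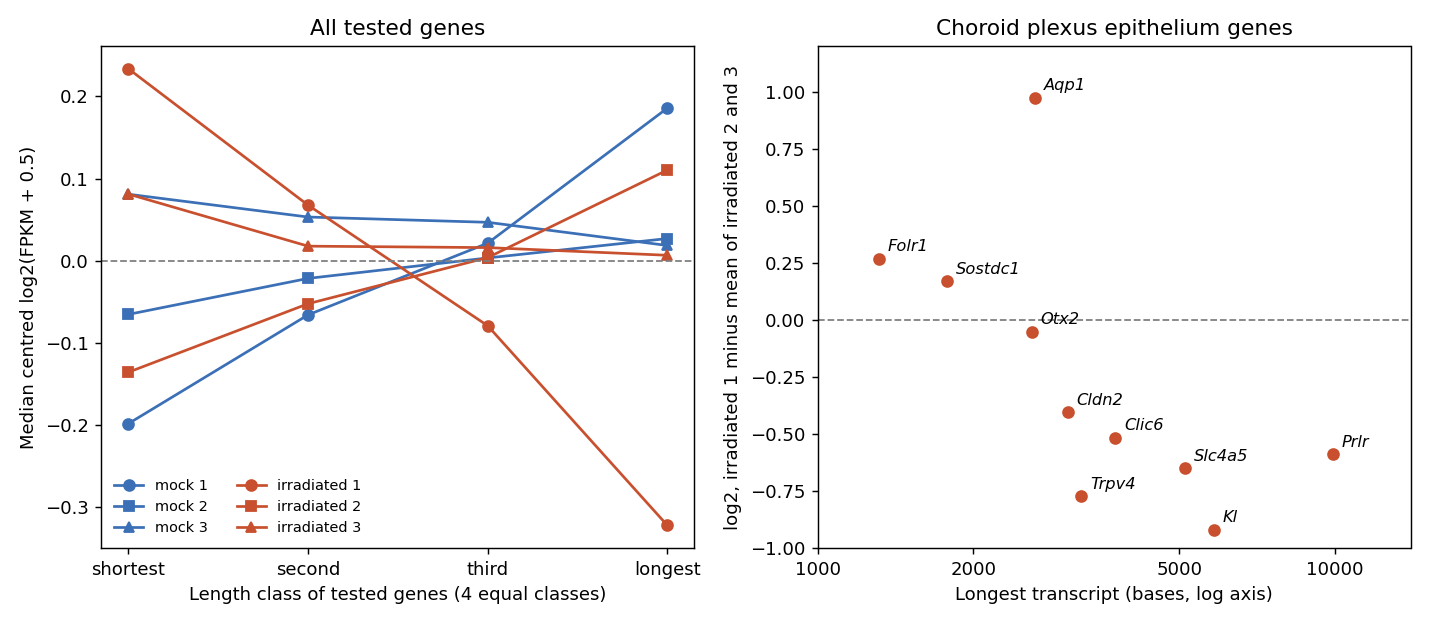
Left, median centred log2(FPKM + 0.5) of all tested genes in each of 4 equal classes of transcript length, by library; right, log2 level of each of the 10 genes in irradiated 1 relative to the mean of irradiated 2 and 3, against its longest transcript (log axis). Irradiated 1 goes from 0.23 in the shortest class to -0.32 in the longest, and Kl, Slc4a5 and Prlr, the longest of the 10, lie at -0.92, -0.65 and -0.59.

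Some of the 10 genes lay close to the mean pattern of the set across libraries, and others did not. The mean centred log2 level of the 10 was 0.42, -0.26 and 0.56 in the mock brains and -0.40, -0.20 and -0.10 in the irradiated ones. Likeness to this mean pattern was measured as the root mean square difference over the 6 libraries, where a smaller value is more alike. It was 0.10 for Cldn2, 0.14 for Clic6 and 0.19 for Sostdc1, and 0.24 to 0.36 for Trpv4, Slc4a5, Kl, Folr1 and Prlr. Aqp1 and Otx2 lay at 0.53 and 0.54, further away than the median gene of the table (0.43). A gene with no variation at all would also lie closer than that median gene. Ranked among all tested genes from the most alike, Cldn2, Clic6, Sostdc1, Trpv4, Slc4a5 and Kl were at 6, 26, 125, 446, 529 and 761. Folr1, Prlr, Aqp1 and Otx2 were at 3196, 3980, 11084 and 11337. Each of the 10 genes is part of the pattern it was compared with, so these values describe the set and test nothing.

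Other genes that followed the same pattern closely were Fgfrl1 (0.081), Ece1 (0.090), Ltbp3 (0.092), Hcn2 (0.095), Man2c1os (0.10), Mcc (0.10), Kank1 (0.11) and Msi1 (0.11), the 8 closest of 14575 by the same measure over the 6 libraries. None of them is a choroid plexus gene of the lists used here. Fgfrl1, for example, had 16.4, 9.88 and 15.2 FPKM in the mock brains and 8.83, 9.81 and 10.8 FPKM in the irradiated ones.

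The order of the levels was nearly the same in both groups. From the highest mean down it was Folr1, Kl, Clic6, Aqp1, Sostdc1, Otx2, Trpv4, Slc4a5, Cldn2 and Prlr in mock libraries, and Otx2 and Sostdc1, as well as Slc4a5 and Cldn2, changed places in irradiated ones. The ranges of every pair of neighbours in that order overlapped in both groups. Folr1 averaged 8.46 ± 4.52 FPKM in the mock brains and 6.89 ± 1.52 FPKM in the irradiated ones, and Prlr 1.43 ± 0.27 and 0.83 ± 0.40 FPKM (SD, n = 3 each).

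Whether single genes moved apart from the rest was compared as well. The log2 level of each gene relative to the mean of the other 9 was compared between groups with an exact two-sided permutation test, which cannot give a p under 0.1 with 3 libraries against 3. The smallest p over the 10 genes was 0.2, for Slc4a5 (adjusted p = 1), whose relative level was -0.62 ± 0.12 in mock and -1.02 ± 0.30 in irradiated libraries (SD, n = 3 each). Folr1 was at 1.10 ± 0.42 and 1.44 ± 0.42 (exact permutation p = 0.4), and Kl at 1.05 ± 0.10 and 0.77 ± 0.43 (exact permutation p = 0.5). As a share of the summed FPKM of the 10, Otx2 made up 15.7% in mock 2 and 15.7% in irradiated 2 but 5.31% to 9.92% in the other 4 libraries, and Aqp1 made up 7.49% and 6.64% in those same 2 libraries and 10.2% to 19.9% in the others.

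Other genes of the plexus were more mixed. Of 35 further choroid plexus genes, 33 were tested, and 1 was lower and 0 were higher, against 4.24% and 3.48% of all tested genes. Before adjustment 9 lower and 2 higher genes had a p under 0.05 (limma), against 25.6% of all genes (13.9% with a lower level). The median log2 change of the 33 was -0.21. The list was made with earlier results of these data known. Enpp2, which encodes the secreted lysophospholipase autotaxin and is also made by oligodendrocytes, was the one called. It had 258.0, 176.8 and 285.2 FPKM in the mock brains and 91.3, 122.7 and 125.3 FPKM in the irradiated ones (log2 change -1.07, SE 0.23, limma adjusted p = 0.030). When single libraries were left out it remained called only without mock 2 (adjusted p = 0.026), with an adjusted p of 0.051 to 0.11 without any other.

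Of the 33 tested, 8 had every irradiated library below mock, mock 2 included, against 17.7% of all tested genes. Another 2 had every irradiated library above mock, where 31.5% of all tested genes lay outside the mock range in either direction. Those 2 above mock were Spint2, a protease inhibitor, and Car12, a membrane carbonic anhydrase, with log2 changes of 0.52 and 0.98 (limma adjusted p = 0.11 and 0.14). The 8 below mock included Trpm3, with the widest log2 change of the list, -1.20, and Car14, at -1.04 (limma adjusted p = 0.098 and 0.068). Car12 had 4.61, 1.72 and 5.10 FPKM in the mock brains and 5.88, 6.47 and 10.4 FPKM in the irradiated ones. The gene 1500015O10Rik, also called Ecrg4, which encodes a secreted peptide precursor, had 48.0, 28.6 and 55.3 FPKM in the mock brains and 19.0, 20.0 and 25.8 FPKM in the irradiated ones (log2 change -0.97, SE 0.26, limma adjusted p = 0.055). It was called in 8 of 19 alternatives, among them without mock 2 (limma adjusted p = 0.019) and with the length correction (adjusted p = 0.032). It was not called without any other single library (adjusted p of 0.091 to 0.17). The 8 include the choroid covariate (limma adjusted p = 0.030), a mean that this gene is itself part of. Slc4a2, an anion exchanger on the blood side of the epithelium, had 30.0, 23.0 and 33.5 FPKM in the mock brains and 19.5, 18.8 and 16.5 FPKM in the irradiated ones (log2 change -0.63, limma adjusted p = 0.069). Of the remaining abundant genes of the list, Igfbp2 had a log2 change of -0.02, Vamp8 one of -0.31, and Slc4a10 one of 0.24, with limma adjusted p of 0.98, 0.46 and 0.47. Many of these genes are also expressed outside the plexus.

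Cell types that lie next to the epithelium gave the following values. Of 16 ependymal genes, 13 were tested and 0 were called by limma (before adjustment 1 higher and 1 lower had a p under 0.05), and their median log2 change was 0.19. Foxj1, a ciliogenesis factor, had 10.7, 9.16 and 13.2 FPKM in the mock brains and 8.61, 7.29 and 7.97 FPKM in the irradiated ones (limma adjusted p = 0.17). Rsph4a and Tekt4 went the other way, with log2 changes of 0.53 and 0.99 (limma adjusted p = 0.17 and 0.21). Of the 13 tested, 6 had a log2 change below 0 and 7 above. Of 12 genes of meningeal and stromal fibroblasts, 1 was higher and 0 were lower, with a median of 0.10. Dcn, a matrix proteoglycan, was the higher one, with 14.5, 18.4 and 17.1 FPKM in the mock brains and 37.8, 24.1 and 40.2 FPKM in the irradiated ones (log2 change 0.98, limma adjusted p = 0.032). Of 12 endothelial genes 0 were called by limma (before adjustment 3 lower and 0 higher had a p under 0.05), their median was -0.36, and irradiated 1 was far below the rest, at a mean centred log2 level of -0.63 against -0.0036 to 0.30 elsewhere. Among all tested genes 3.48% were called higher and 4.24% lower, and 51.8% had a log2 change below 0. Before adjustment 25.6% had a p under 0.05 (limma), 13.9% with a lower level. No test of the difference between these lists and the 10 genes was made.

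**Figure D4:**
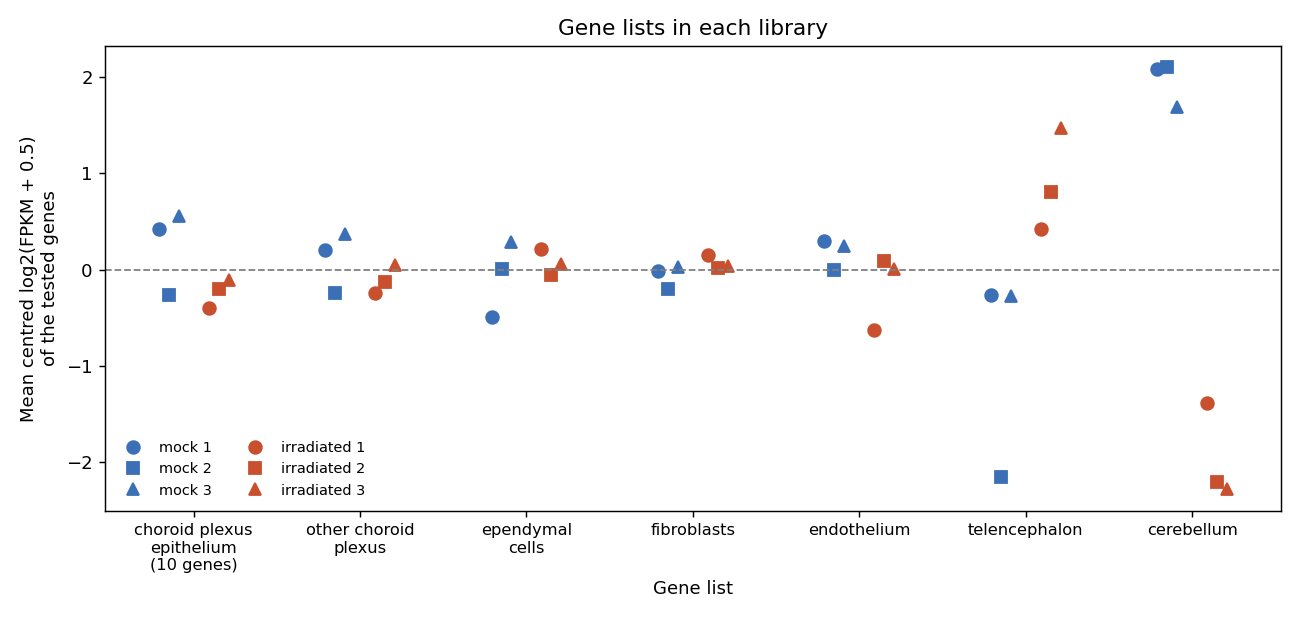
Mean centred log2(FPKM + 0.5) of the tested genes of 7 lists in each library (mock blue, irradiated orange). Mock 2 lies near the irradiated libraries on the choroid plexus lists and at -2.16 on the telencephalon list, and the groups are far apart on the cerebellum list.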

How the data were processed

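RNA of 6 brains was sequenced, 3 per group, each a separate mouse per the series' design text. Stranded libraries without ribosomal RNA were, per the labels' protocols, read as 75-nucleotide single ends to about 30 to 40 M reads. The deposited values are FPKM, 1 column per library. Per the submitters' processing notes, the tools were TopHat, Cufflinks and Cuffdiff and the build was mm10, with no versions, settings or annotation given there. Counts were not used here, so the depth behind single values is unknown and no counting interval is given. The deposited FPKM summed to 472450 to 625782 per library. After removal of 1 leftover header line, 14585 of 23057 genes had a mean of at least 0.5 FPKM and were tested in R 4.3.3 by limma 3.58.1, applied to log2(FPKM + 0.5) with a mean-variance trend, two-sided, with Benjamini-Hochberg adjustment over all of them. An adjusted p under 0.05 was a call. Such fold changes understate the change of low genes.

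The test was tested on simulated data. The 10 genes, the other lists and the tests were chosen with earlier results of these data known. Named genes were the 10, and the called genes and the 6 most abundant others of the choroid list. Up to 3 by p and 2 by level of other lists, and the 8 nearest in pattern, were named too. Gh, Car12, Car14, Trpm3, Socs2, Crx, Rpe65, Pmel, Otx2os1 and 2410124H12Rik were added after their values were seen. Gene positions and transcript lengths are from GENCODE M21 (GRCm38, the assembly of mm10), with the longest transcript per gene for 96.3% of tested genes. Alternatives were pseudocounts of 0.1 and 1, no filter or one of 1 FPKM, quantile normalization or median centring, library weights, robust empirical Bayes, a replicate block, the mean of the other choroid genes as a covariate and each library left out. A lowess length correction (span 0.3), alone and without mock 2, and mock 2 and irradiated 1 left out together were added after the data were seen.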

Additional observations from a re-analysis of the deposited data

How the results depend on the processing

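Of the 10 genes, 0 were called in each of 16 alternatives, and 0, 2 and 3 in the added ones (length correction, length correction without mock 2, and mock 2 and irradiated 1 left out together). The alternatives refit the same 6 libraries or some of them, and several give the same log2 changes, so they are not independent. The median of the 10 ranged from -0.67 to -0.29 over single left-out libraries. Their log2 changes lay below 0 in 185 of 190 combinations of gene and alternative. The exceptions were Folr1 (0.26) and Trpv4 (0.16) with the choroid covariate, Folr1 without mock 3 or irradiated 2 (-0.56 to 0.20 over left-out libraries) and Otx2 without irradiated 3 (-0.54 to 0.037). Igfbp2 turned to 0.26 with the covariate and to 0.018 with median centring (-0.31 to 0.28 over left-out libraries). Among the further choroid plexus genes 7 were called with the covariate. That covariate is their own mean, Igfbp2 included, so each was adjusted partly for itself. There were 7 called with library weights, 7 without mock 2 and irradiated 1, 5 with the length correction and 3 with it and without mock 2. Quantile normalization gave 3, median centring 2, no filter 0, and left-out libraries 0 to 2. Of all genes, 508 were higher and 618 lower. These counts were 1121 and 798 with the covariate, 863 and 976 with library weights, and 822 and 793 with the length correction. Over left-out libraries 147 to 673 were higher and 254 to 695 lower. The labels do not say that equal replicate numbers share a litter or day, and deviations of same-numbered libraries correlated at -0.33, 0.19 and 0.20. With the replicate block 394 genes were lower, 0 of the 10 and 0 further choroid plexus genes were called, and not every library correlated best with its own number. Depth behind single FPKM values is unknown, which limits genes near 1 FPKM such as Prlr most.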
